A study of Mus musculus with 74 samples.

Results

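Of 18193 genes measured in liver and fat of male B6C3F1 mice, 10 genes of blood clotting are described here across 74 microarrays. They were chosen by name, but with earlier results of these data known. F2 (prothrombin), F7, F9 and F10 encode zymogens of clotting proteases, and F5 encodes the cofactor that prothrombin activation needs. Fga and Fgb encode the alpha and beta chains of fibrinogen, the protein that thrombin turns into fibrin. Serpinc1 (antithrombin) and Serpind1 (heparin cofactor II) encode inhibitors of clotting proteases that heparin speeds up, and Plg encodes plasminogen, the precursor of the protease that dissolves fibrin. These genes had 13 probe sets, of which 10, the brightest of each gene over all arrays, represent them below.

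The mice received Elmiron (1000 mg/kg, oral), troglitazone (1200 mg/kg, oral) or fenretinide (500 mg/kg, in the diet), or a vehicle that the labels do not name, for 15 or 29 days. Elmiron is pentosan polysulfate, a sulfated polysaccharide that resembles heparin, troglitazone activates the nuclear receptor PPARγ, and fenretinide is a synthetic retinoid. Each compound had a study and vehicle mice of its own, so compound, dose and study cannot be told apart. The doses were above those of the carcinogenicity studies, and the stated aim was to find when proliferative or hypoxic changes appear in tissues that develop hemangiosarcoma. Liver of the Elmiron study and liver of the troglitazone study each gave 4 groups of 5 mice, with and without the compound at either time. Brown fat came from the troglitazone study, with 5 mice in each of 4 groups, and white fat from the fenretinide study, in groups of 3 mice on day 15 and of 4 on day 29. The labels give no ages.

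Hepatocytes make most of the clotting proteins of plasma. F2, F7, F9 and F10 are zymogens that need carboxylation by a vitamin K-dependent enzyme before they can bind membranes, and they activate one another in a cascade in which F5 and F8 act as cofactors. Antithrombin blocks thrombin and activated F10 and F9, and heparin cofactor II blocks thrombin. Heparin acts on these proteins in plasma, whereas the arrays measured mRNA in liver. Fibrinogen is an acute phase protein, made in larger amounts when interleukin-6 reaches the liver, and hepatocyte transcription factors such as HNF1 and C/EBP act on its promoters.

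Fga and Fgb lie next to each other in the mouse genome, beside the third fibrinogen gene Fgg, and F7 lies next to F10. The 250 bases before the start of Fga (chr3:83025903-83026152, plus strand) and of Fgb (chr3:83049864-83050113, minus strand) are shown because these genes moved together more closely than any other pair of members. Both are from RefSeq on GRCm38.p6 and read 5′ to 3′. The third sequence, before F5 (chr1:164151585-164151834, plus strand), belongs to the member whose representative probe set varied most in liver. Capitals mark letters of an HNF1 core (GTTAAT), a C/EBP site (TTNNGNAA) or a STAT3 site (TTCNNNGAA), on either strand.
Fga: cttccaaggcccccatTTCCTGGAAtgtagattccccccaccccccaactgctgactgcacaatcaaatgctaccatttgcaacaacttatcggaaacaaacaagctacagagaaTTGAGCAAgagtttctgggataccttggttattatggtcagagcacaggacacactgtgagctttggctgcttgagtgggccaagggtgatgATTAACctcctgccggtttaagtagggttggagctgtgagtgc
Fgb: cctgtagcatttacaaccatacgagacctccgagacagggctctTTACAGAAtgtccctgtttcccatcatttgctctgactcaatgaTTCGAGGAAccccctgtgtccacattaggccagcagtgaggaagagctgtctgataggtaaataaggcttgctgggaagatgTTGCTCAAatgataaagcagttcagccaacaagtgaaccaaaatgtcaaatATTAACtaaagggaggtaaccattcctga
F5: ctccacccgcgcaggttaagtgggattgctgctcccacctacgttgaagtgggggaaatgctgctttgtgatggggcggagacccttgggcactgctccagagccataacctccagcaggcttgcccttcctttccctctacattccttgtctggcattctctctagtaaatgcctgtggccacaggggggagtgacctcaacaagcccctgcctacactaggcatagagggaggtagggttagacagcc
The HNF1 core stood in the Fga and Fgb promoters, on the minus strand of each, and in no other of the 9 member promoters found in the table, against 6.43% of 32851 mouse promoters of that length. Its letters lay 43 to 38 bases before the start of Fga and 29 to 24 before that of Fgb. STAT3 letters were found in Fga, Fgb and F9 (7.02% of all promoters), and C/EBP letters in Fga, Fgb, F9 and Serpind1 (36.8%). None of these overlapped another in Fga or Fgb, and F5 held none of them. An HNF4 core (CAAAG) was found in 6 of the 9, F5 and Fga among them, and in 48.6% of all promoters, and TATAAA was found in none of the 9 and in 12.4% of all. Plg has no entry in the table. A match is a description of letters, not of a bound site.

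Values below are log2 of the deposited intensity, each group is given as mean ± SD, and changes are treated minus vehicle with the standard error (SE) of the limma fit. Hepatocyte markers were high in all liver arrays: the mean over 18 hepatocyte markers was 13.80 to 14.02 on the 40 arrays, and arrays of one group correlated at 0.980 to 0.997 over all genes. Every member was bright there. The medians over 40 arrays ran from 12.29 to 14.60, near the highest value of the whole table, 15.21, and whether the brightest probe sets were close to saturation was not tested. The spread within groups was small, with an SD pooled over the 8 groups of 0.034 (Serpinc1) to 0.241 (F5), under 0.2 in 9 of the 10 genes. Levels of different genes are not compared, since each probe set has its own response.

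**Figure D1:**
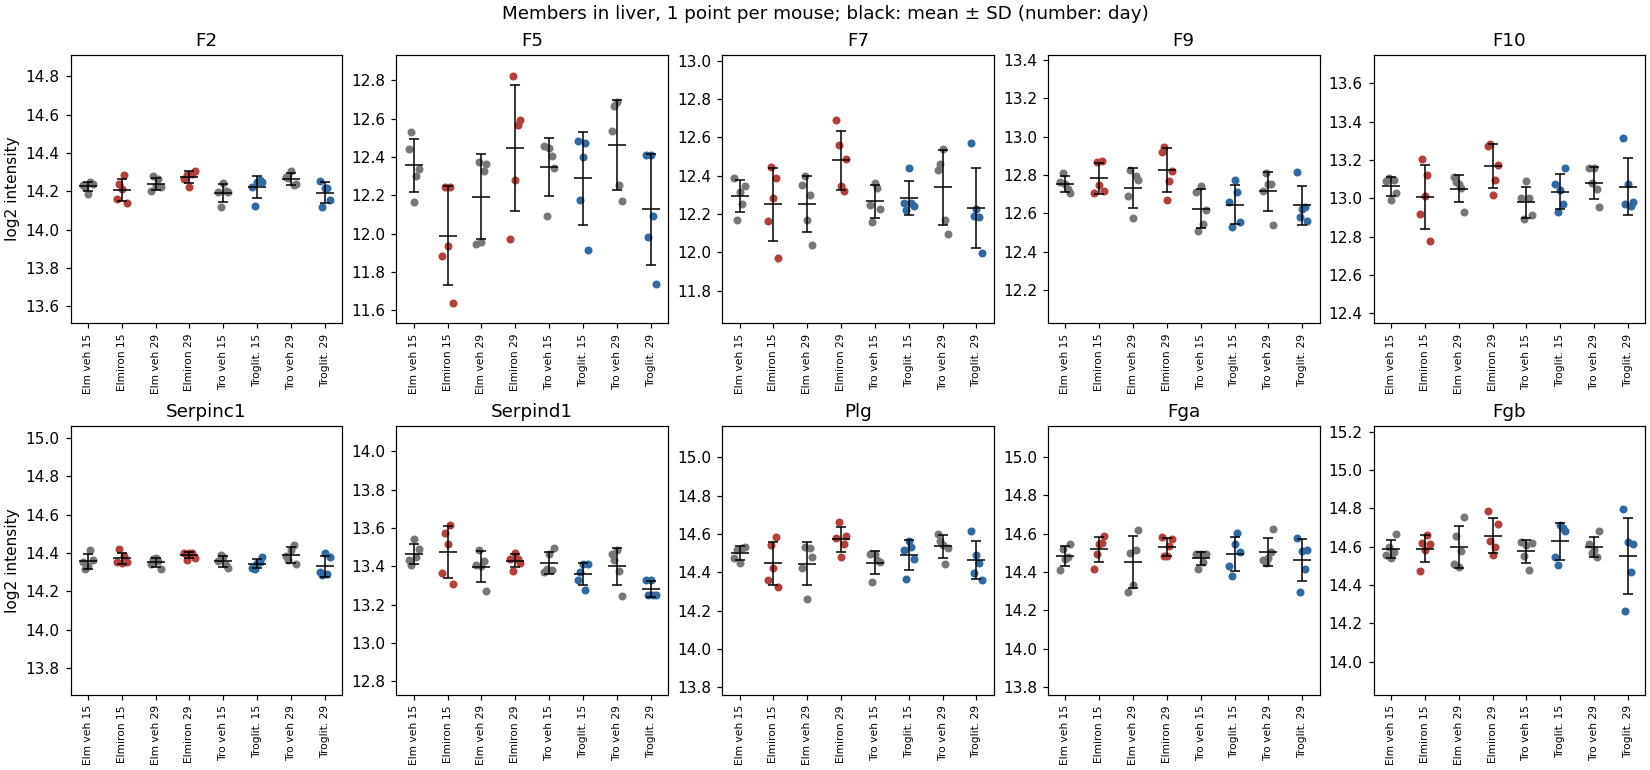
Each panel shows 1 gene in liver, with the log2 intensity of each mouse (points, 5 a group) and the group's mean ± SD (black), for vehicle (grey), Elmiron (red) and troglitazone (blue) on days 15 and 29, on axes that span the same number of log2 units. F5 spreads from 11.64 to 12.83, while Serpinc1 stays between 14.28 and 14.44 in all 40 mice.

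None of the 10 genes passed the test in liver with either compound. Limma called 0 of 10 members at an adjusted p below 0.05 in any of the 4 liver comparisons. The same fits called few genes of any kind: 0.0% of 18193 genes with Elmiron on day 15, 0.0055% (1 gene) on day 29, 0.022% (4 genes) with troglitazone on day 15 and 0.115% (21 genes) on day 29. In the same order, 5.48%, 8.3%, 4.3% and 10.2% of all genes had an unadjusted p below 0.05. With the representative probe sets, the members among them were F5 with Elmiron on day 15 and F7 with Elmiron on day 29. With troglitazone they were no gene on day 15 and F5 on day 29. These did not hold throughout: the p of F5 with Elmiron on day 15 was above 0.05 in 1 of 11 other settings and without 2 of the 10 arrays (vehicle mouse 42, Elmiron mouse 55). That of F7 was so in 3 of 11 and without 4 arrays (vehicle mice 83 and 85, Elmiron mice 91 and 92). That of F5 with troglitazone on day 29 was so in 2 of 11 and without 4 arrays (vehicle mice 85 and 86, treated mice 93 and 96). The setting with all probe sets kept each gene's probe set with the smallest p, so it could not lose F5 through its second set. That set, 1418907_at, had an unadjusted limma p of 0.289 with Elmiron on day 15. The treated and vehicle values of every member overlapped in all 4 comparisons. Over all genes, groups without overlap made up 1.06%, 1.43%, 2.09% and 1.07%. In bulk RNA, fewer hepatocytes and less RNA in each of them cannot be told apart.

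The Elmiron livers on day 15 held 5 of 10 members above their vehicle level, and those on day 29 held 10 of 10, against 48.2% and 54% of all genes. The troglitazone livers held 7 of 10 above on day 15 and 0 of 10 on day 29, against 45.5% and 50.6%. These counts rest on small values. With 1 array left out the 4 counts ran from 3 to 6, 9 to 10, 5 to 8 and 0 to 3, in the same order, and over 11 other settings from 3 to 7, 8 to 10, 2 to 7 and 0 to 3. Without troglitazone mouse 93, F10, Fga and Fgb lay above 0 on day 29, at most at 0.03, and against the other study's vehicle livers F10, Fga and Plg did, at most at 0.02. The median change was -0.01 and 0.09 with Elmiron on days 15 and 29, and 0.02 and -0.07 with troglitazone. The members rise and fall together from mouse to mouse, as shown further on, so their directions are not 10 separate observations.

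**Figure D2:**
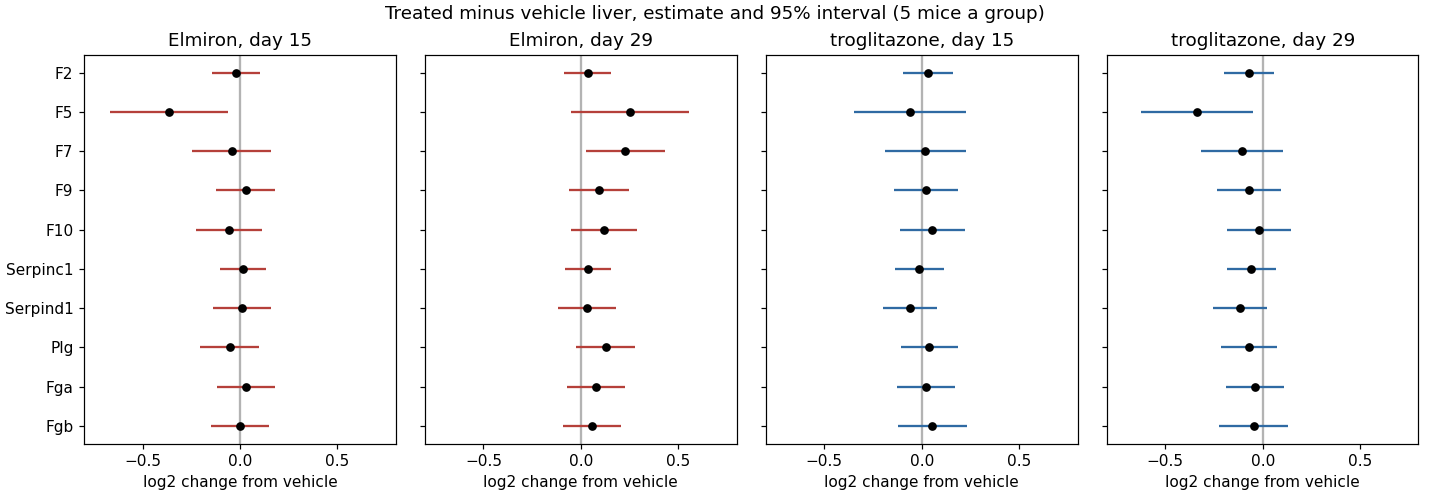
Each panel shows 1 comparison of treated with vehicle livers, with the log2 change of each gene (points) and its 95% interval (lines), from 5 mice a group. F5 has the widest intervals, and only F5 with Elmiron on day 15, F7 with Elmiron on day 29 and F5 with troglitazone on day 29 have intervals that leave out 0 before adjustment over all genes.

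F5, the cofactor of prothrombin activation, had the largest changes and the largest spread among the representative probe sets. Its values in vehicle mice of the Elmiron study on day 15 were 12.44, 12.53, 12.17, 12.30 and 12.34. With Elmiron they were 11.88, 12.25, 11.94, 12.24 and 11.64. The lowest 3 of these 10 values belonged to treated mice, but 2 treated mice lay above the lowest vehicle mouse. The change was -0.37 ± 0.15, a fold of 0.776 with a 95% interval of 0.629 to 0.957, and limma's adjusted p was 0.862.

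Day 29 of the Elmiron study turned the other way. Vehicle mice had F5 at 11.94, 12.37, 11.96, 12.33 and 12.37. Elmiron mice had it at 11.97, 12.83, 12.28, 12.57 and 12.59. Of the treated mice, 3 lay above all vehicle mice and 2 within the vehicle range. The change was 0.25 ± 0.15 with an adjusted p of 0.632, and the vehicle mean itself was 12.36 ± 0.14 on day 15 and 12.19 ± 0.22 on day 29. The difference between the effects of the 2 days was 0.62 ± 0.21, with an unadjusted p of 0.00662 and an adjusted p of 0.838. In that test of the days 0.0% of all genes were called, and 5.39% had an unadjusted p below 0.05, F5 the only member among them. For troglitazone the same test of the days called 0.0% of all genes, with 7.49% and no member at an unadjusted p below 0.05.

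With troglitazone the F5 change was negative on both days, and larger in size on day 29. On day 15 vehicle mice had F5 at 12.46, 12.09, 12.44, 12.41 and 12.34, and treated mice at 12.48, 12.17, 12.40, 12.47 and 11.92. These groups overlapped throughout, and the change was -0.06 ± 0.14. On day 29 vehicle mice had 12.53, 12.67, 12.69, 12.25 and 12.17, and treated mice 12.41, 11.98, 12.41, 12.09 and 11.74. Of the vehicle mice, 3 lay above all treated mice, and 3 treated mice lay below all vehicle mice. The change was -0.34 ± 0.14, a fold of 0.792 (95% interval 0.649 to 0.967), with an adjusted p of 0.450. With array weights, which give discordant arrays less influence, this change was -0.47 with an adjusted p of 0.0417. It was the only one of 440 member values under other settings in the 4 liver comparisons that was called. That setting called 436 of 18193 genes in this comparison, against 21 in the main fit. Against the other study's vehicle livers of that day the F5 change was -0.07.

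F5 had a second probe set, 1418907_at, beside 1449269_at. The SD within a liver group was 0.098 to 0.215 for 1418907_at and 0.139 to 0.329 for 1449269_at. The choice of 1449269_at rests on its mean over all arrays, and in liver it was not always the brighter set. On day 15, 1418907_at was at 12.31 in vehicle and 12.19 in Elmiron livers, and 1449269_at at 12.36 and 11.99. The spread and the changes given above are those of 1449269_at. The second set, 1418907_at, changed by -0.12 ± 0.11 and 0.11 ± 0.11 with Elmiron on days 15 and 29, and by 0.01 ± 0.09 and -0.22 ± 0.09 with troglitazone. The directions of 1418907_at were those of 1449269_at in 3 of the 4 comparisons, with smaller sizes. In a limma fit of all 34945 probe sets, the smallest adjusted p of 1418907_at was 0.528, with troglitazone on day 29 (unadjusted p 0.0234).

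F7, the protease that starts clotting when it meets tissue factor, had its largest change with Elmiron on day 29. Vehicle mice were at 12.35, 12.40, 12.17, 12.30 and 12.04, and Elmiron mice at 12.69, 12.56, 12.35, 12.32 and 12.49. The highest 3 treated mice lay above all vehicle mice. The change was 0.23 ± 0.10, a 1.17-fold level with a 95% interval of 1.02 to 1.35, and the adjusted p was 0.573. F7 changed by -0.04 ± 0.10 with Elmiron on day 15, 0.02 ± 0.10 with troglitazone on day 15 and -0.11 ± 0.10 on day 29.

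F10, the zymogen whose active form cuts prothrombin, was at 13.05 ± 0.07 in vehicle and 13.17 ± 0.11 in Elmiron livers on day 29, a change of 0.12 ± 0.08. Its dimmer probe sets 1418993_s_at and 1418992_at changed there by 0.30 ± 0.11 and 0.26 ± 0.12. Limma's unadjusted p was 0.0162 and 0.0351 for these sets, and the adjusted p over all probe sets was 0.553 and 0.586. In the other 3 comparisons the brightest set, 1449305_at, changed by -0.06, 0.05 and -0.02. F9, which is missing in hemophilia B, and F2 moved less: F9 by 0.03 and 0.09 with Elmiron and 0.02 and -0.07 with troglitazone, F2 by -0.02 and 0.03 with Elmiron and 0.03 and -0.07 with troglitazone. For the representative probe sets these values had an adjusted p of 0.690 or more.

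The fibrinogen chains stayed within a narrow band. Fga was at 14.48 ± 0.05 in vehicle and 14.52 ± 0.07 in Elmiron livers on day 15, and at 14.45 ± 0.13 and 14.53 ± 0.05 on day 29. Fgb was at 14.59 ± 0.05 and 14.59 ± 0.07 on day 15, and at 14.60 ± 0.11 and 14.66 ± 0.09 on day 29. With troglitazone the changes of Fga were 0.02 ± 0.07 and -0.04 ± 0.07, and those of Fgb 0.05 ± 0.09 and -0.05 ± 0.09. The 95% intervals of these 8 fibrinogen changes ran from -0.22 to 0.23 in log2 units. The third chain, Fgg, was not a member and changed by 0.03, 0.03, 0.02 and -0.03 in the same order.

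Both chains varied between mice of the same group. With troglitazone on day 29, treated mice 92 to 96 held Fgb at 14.79, 14.26, 14.62, 14.47 and 14.61, and Fga at 14.58, 14.29, 14.51, 14.42 and 14.51. Mouse 93 was lowest and mouse 92 highest for both chains. Over the 40 arrays Fgb ran from 14.26 to 14.79, so this group held both extremes.

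Serpinc1 and Serpind1, the inhibitors on which heparin acts, are the members closest to the pharmacology of Elmiron. Serpinc1 was at 14.35, 14.31, 14.33, 14.42 and 14.36 in vehicle mice and at 14.35, 14.42, 14.35, 14.38 and 14.35 in Elmiron mice on day 15. On day 29 it was at 14.34, 14.37, 14.37, 14.36 and 14.32 in vehicle mice and at 14.40, 14.37, 14.40, 14.40 and 14.38 in Elmiron mice. The groups overlapped on both days, but on day 29 all but the lowest treated mouse lay above all vehicle mice. The changes were 0.02 ± 0.06 and 0.04 ± 0.06, with 95% intervals of 0.931 to 1.10 and 0.945 to 1.11 in fold. Limma draws these SE toward the spread of other genes, and the pooled SD of Serpinc1 itself in liver was 0.034.

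Serpind1 changed by 0.01 ± 0.07 and 0.03 ± 0.07 with Elmiron, within 0.909 to 1.12 and 0.921 to 1.13 in fold. On day 15 its SD was 0.13 among treated and 0.05 among vehicle mice. With troglitazone on day 29, vehicle mice were at 13.46, 13.43, 13.49, 13.38 and 13.25 and treated mice at 13.33, 13.25, 13.33, 13.25 and 13.25. The highest 4 of 5 vehicle mice lay above all treated mice, and the change was -0.12 ± 0.07 with an adjusted p of 0.553. Serpinc1 changed by -0.01 and -0.06 with troglitazone on the 2 days.

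Plg was at 14.42, 14.53, 14.26, 14.53 and 14.48 in vehicle and at 14.58, 14.66, 14.48, 14.55 and 14.59 in Elmiron mice on day 29. Of 5 treated mice, 4 lay above all vehicle mice. The change was 0.13 ± 0.07 with an adjusted p of 0.632. It was -0.05 ± 0.07 with Elmiron on day 15, and 0.04 and -0.07 (SE 0.07 for each) with troglitazone on days 15 and 29.

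Simulated data showed which changes the fits could call when many genes changed. In data simulated from these arrays, changes of 1 log2 unit were called in 94% to 98% of genes over the 4 liver comparisons. Changes of 0.5 were called in 54% to 64%, and changes of 0.25 in 4% to 10%. Each run changed 50 genes at each size, up to 2 log2 units, with noise drawn independently for each gene. The real fits called 0 to 21 genes, and fewer changed genes make the adjusted p stricter. These shares may therefore be too high for the real data. The changed genes were drawn from all genes. The members, of which 9 had a pooled SD under 0.2 in liver, were not tried separately, so their shares may differ. The interval that reached farthest from 0, that of F5 with Elmiron on day 15, ran from -0.67 to -0.06. For the 10 genes in 4 comparisons no interval reached a change of 1 log2 unit in either direction.

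The effects of the compounds, each against its own study's vehicle livers, were then set against each other. On day 15 the differences between Elmiron and troglitazone ran from -0.31 (F5) to 0.07 (Serpind1), with 0 members called, 0 at an unadjusted p below 0.05, and 0.0055% of all genes called, 5.97% of them at an unadjusted p below 0.05. On day 29 Elmiron's effect was above troglitazone's for all 10 members, against 50.5% of all genes. This count is no further result. It follows from the counts above, 10 of 10 members above 0 with Elmiron and 0 of 10 with troglitazone. The differences were largest for F5 (0.59 ± 0.21, adjusted p 0.278), F7 (0.33 ± 0.14, adjusted p 0.332) and Plg (0.20 ± 0.09, adjusted p 0.373). Those 3 had unadjusted p below 0.05, as did 12.7% of all genes, and 0 members were called against 0.0934% of all genes. With array weights the F5 difference was 0.72 with an adjusted p of 0.0202, in a fit that called 912 of 18193 genes, against 17 without weights. The doses and studies differ, and the vehicle livers of the studies themselves differed for F5 by -0.27 ± 0.15 on day 29 (adjusted p 0.483) and by 0.01 ± 0.15 on day 15.

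Vehicle livers showed how far the members moved with no compound. Between days 15 and 29, vehicle livers of the Elmiron study changed by -0.16 (F5) to 0.01 (F2), and those of the troglitazone study by -0.02 (Serpind1) to 0.11 (F5). Limma called 0 genes in either comparison, with 5.42% and 6.51% of all genes at an unadjusted p below 0.05 and no member among them. Between the vehicle livers of the studies, 0 genes were called on either day, with 3.11% and 11.4% of all genes, and no member, at an unadjusted p below 0.05.

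The mice of a group differed in a shared way. After each group's mean was subtracted, 40 of the 45 pairs of members had a correlation above 0 over the 40 liver arrays, with a median r of 0.429, and 18 pairs were above 0.5. All 10 members lay below their group's mean in 2 mice (Elmiron mouse 51 on day 15, troglitazone mouse 93 on day 29) and above it in 4. These correlations share arrays and the authors' normalization, and are given as descriptions.

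**Figure D3:**
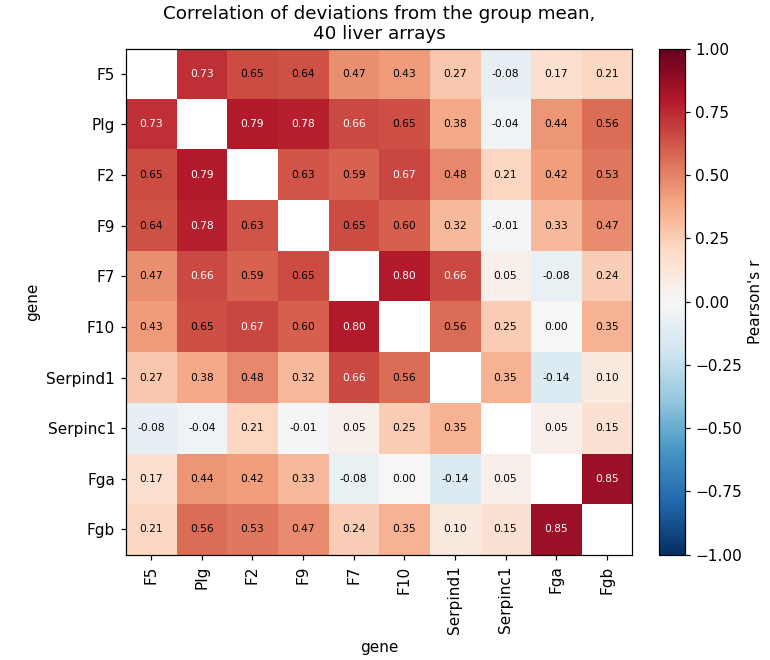
Each cell gives Pearson's r of 2 genes over 40 liver arrays after each group's mean was subtracted, from -1 (blue) to 1 (red). Fga and Fgb form a pair at 0.85, F7 and F10 another at 0.80, F5, Plg, F2 and F9 a block at 0.63 to 0.79, and Serpinc1 stands near 0 with most genes.

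Fga and Fgb gave the highest r of all pairs, 0.854 (Spearman's rho 0.858, 0.835 without the 2 arrays farthest from the median of Fga). F7 and F10 came next at 0.795. Both pairs are neighbours in the genome. F2 with Plg (0.794), F9 with Plg (0.776) and F5 with Plg (0.734) followed, and these are not neighbours. Fga had 0.00 with F10, -0.08 with F7 and -0.14 with Serpind1. The lowest values of Serpinc1 were -0.08 with F5 and -0.04 with Plg.

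Over all 18193 genes, the closest to Fga were Fgb, Fgg (0.848) and Crp (0.782), which encodes C-reactive protein, and the closest to Fgb were Fga, Crp (0.786) and Fgg (0.785). The mean of 21 acute phase genes, which holds no fibrinogen gene, correlated with Fga at 0.628 (rho 0.574) and with Fgb at 0.627 (rho 0.541). The next highest member was F9 at 0.371, and Serpinc1 and Serpind1 had -0.29 and -0.25. Plg was closest to Fn1 (0.915), which encodes fibronectin, Hrg (0.912), a plasma glycoprotein that binds plasminogen and heparin, and Slc38a3 (0.905), a glutamine transporter.

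F5 was closest to Ptprf (0.934), a receptor phosphatase, Hnrnpul1 (0.927), an RNA-binding protein, and Ogdh (0.920), a subunit of the oxoglutarate dehydrogenase complex. None of these encodes a clotting protein, and nor do the closest genes of F2, F7, F9, Serpinc1 and Serpind1 given below. F7 was closest to Mst1 (0.864), which encodes the plasma protein MSP, Ctsa (0.855) and Tmem63a (0.847). F10 shared Mst1 (0.843), followed by Proc (0.805), which encodes protein C, and Tpi1 (0.797). F9 was closest to Sec14l4 (0.843), Pbxip1 (0.817) and Hc (0.816), the gene of complement C5, and F2 to Dag1 (0.841), Psap (0.832) and Cmip (0.825). Serpind1 was closest to Aldh8a1 (0.767), Nhlrc3 (0.759) and Nsmce3 (0.758). Serpinc1 had the weakest partners, Cxadr (0.662), Chtop (0.651) and Pard3b (0.633). The mean of the 10 members was closest to Cpn2 (0.909), a carboxypeptidase N subunit, Glmp (0.898) and Itih1 (0.896).

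RNA quality and other cells were set beside these values. The difference between the 3′ and 5′ control probe sets, a measure of RNA integrity, was 0.07 to 0.31 for Gapdh and 0.66 to 1.33 for actin over the 40 liver arrays. Its r with Serpinc1 was -0.52 for Gapdh and -0.46 for actin, and with F5 0.07 and -0.30. For actin it was -0.46 with Serpind1 and -0.395 with F2. On day 15 the Gapdh difference was 0.145 ± 0.068 in Elmiron and 0.240 ± 0.052 in vehicle livers, in the comparison in which F5 and F8 are described. Its part in the results was not tested. The mean of the 18 hepatocyte markers had an r with the members between -0.18 (Fgb) and 0.145 (Serpinc1).

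No gene of 5 related lists was called in any of the 4 liver comparisons: clotting factors and fibrin stabilisers (12 of 14 measured), anticoagulants (12 of 14), fibrinolysis (9 of 11), the vitamin K cycle (6 of 7) and hepatocyte transcription factors (14 of 16). Hnf4a, which drives many of the clotting genes, changed by -0.01 and 0.15 with Elmiron and -0.003 and -0.12 with troglitazone. Vkorc1 and Ggcx, the enzymes of vitamin K recycling and carboxylation, stayed between -0.04 and 0.14. Alb changed by -0.02 to 0.01.

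F8, the cofactor missing in hemophilia A and made by endothelial cells, was the related gene with the smallest unadjusted p. Vehicle mice on day 15 of the Elmiron study held it at 7.70, 7.71, 8.02, 8.14 and 7.99, and Elmiron mice at 8.34, 8.52, 8.17, 8.81 and 8.61. The groups did not overlap, as was so for 1.06% of all genes in that comparison. The change was 0.58 ± 0.13, with an unadjusted p of 2.82e-04 and an adjusted p of 0.549, and on day 29 it was 0.18 ± 0.13. On day 15 the endothelial markers had a median change of 0.16, with 14 of 16 above 0. The Kupffer cell and macrophage markers had one of 0.43, with 17 of 18 above 0. Of all genes, 48.2% were above 0. Of the Kupffer cell and macrophage markers, 11 had an unadjusted p below 0.05, against 5.48% of all genes, and none was called. The Kupffer marker mean was 8.60 to 9.05 in vehicle and 8.99 to 9.56 in Elmiron livers, and its part in the F8 values was not tested.

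Pros1, the gene of protein S, a cofactor of protein C, was at 9.34, 9.56, 9.31, 9.52 and 9.60 in vehicle and at 10.34, 9.95, 9.59, 9.83 and 10.05 in Elmiron livers on day 29. All but the lowest treated mouse lay above all vehicle mice, and the change was 0.49 ± 0.12 with an adjusted p of 0.352. F11, a zymogen of the contact pathway, was lower in every troglitazone mouse than in any vehicle mouse on day 15, at 10.905 to 11.102 against 11.151 to 11.419. This was a change of -0.28 ± 0.10 (adjusted p 0.957), and 2.09% of all genes had groups without overlap there. On day 29 it changed by -0.37 ± 0.10 (adjusted p 0.204), and Klkb1, the gene of prekallikrein, which activates F12, by -0.29 ± 0.10 (adjusted p 0.404). F12 changed by 0.25 ± 0.11 with Elmiron on day 29 (adjusted p 0.573).

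Acute phase genes had medians above 0 in all 4 comparisons, 0.10 and 0.32 with Elmiron and 0.23 and 0.23 with troglitazone, with 17, 19, 20 and 15 of 21 above 0 and none called. Saa1, serum amyloid A, varied widely between mice, and its changes had SE of 0.575 to 0.609. Hp, haptoglobin, changed by 0.04, 0.12, 0.09 and 0.03. With troglitazone on day 29, all 10 members were below 0 with all arrays in the fit. There the Kupffer markers had a median of 0.44, with 17 of 18 above 0, against 50.6% of all genes. Clec4f, which marks Kupffer cells, changed by 0.51 ± 0.23 (adjusted p 0.470). After each group's mean was subtracted, the Kupffer marker mean had an r of 0.103 (rho -0.0552) with the mean of the members over 40 liver arrays. Its part in the members' changes was not tested.

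Fat was the reference for tissues that do not make clotting proteins. By markers of other cells, 6 fat libraries stood apart from their tissue. Brown fat vehicle mouse 82 on day 29 had hepatocyte markers at a mean of 11.82, against a brown fat median of 7.15, and brown adipocyte markers at 7.16 against 12.44, so it went against its label. Brown fat troglitazone mouse 95 on day 29 had brown adipocyte markers at 8.08 and hepatocyte markers at 8.36, so it went against its label as well. Brown fat vehicle mouse 42 on day 15 had hepatocyte markers at 8.86. In white fat on day 29, vehicle mouse 86 and fenretinide mice 93 and 95 had them at 10.62, 9.75 and 11.52, against a median of 8.02. Mouse 93 also held brown adipocyte markers at 11.46, against a white fat median of 7.36.

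In vehicle mice of the troglitazone study, all 10 members were higher in liver than in brown fat, by 5.68 ± 0.11 (Serpind1) to 8.46 ± 0.59 (Fga) in log2 units. Without brown fat mice 42, 82 and 95, these differences were 5.75 ± 0.08 and 9.53 ± 0.22. In that comparison limma called 76.1% of all genes. The median difference was 7.38 over the members, 6.94 over 18 hepatocyte markers and 0.125 over all genes, and 1.13% of all genes reached the smallest member difference. The groups of all 10 genes stood without overlap, as did those of 31.3% of all genes. No detection calls were used here, so a low fat value may be background and a difference may be larger than measured. Of the 10 vehicle mice with a liver array, 7 also gave a brown fat array.

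**Figure D4:**
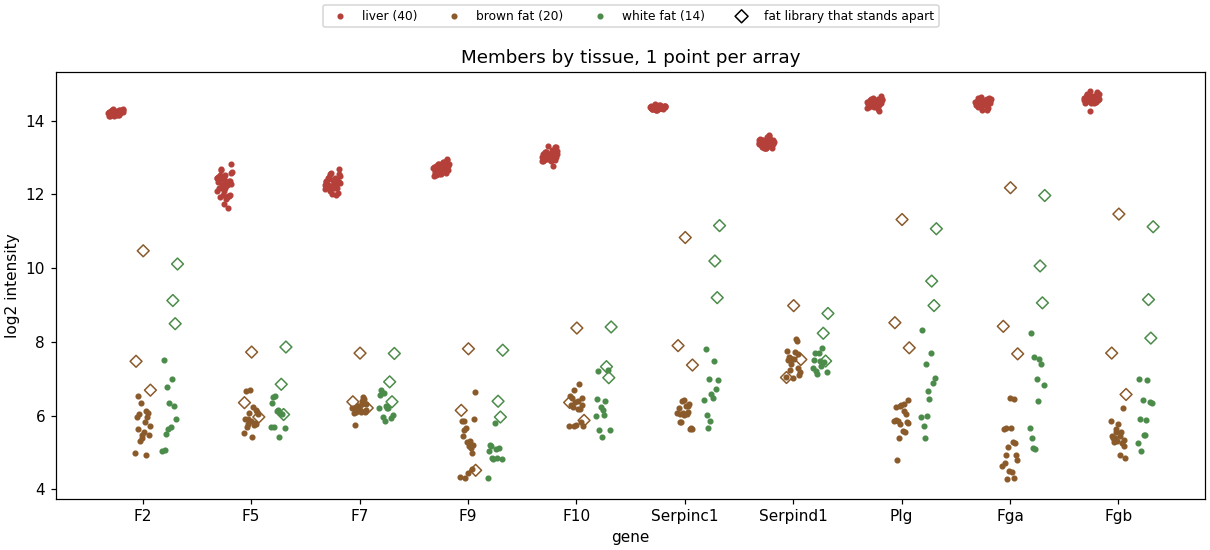
Log2 intensity of each gene on every array of liver (40, red), brown fat (20, brown) and white fat (14, green), with open diamonds for the fat libraries that stand apart. Liver values form a tight band above all fat values, and the open diamonds lie between fat and liver for Fga, Fgb, Plg, Serpinc1 and F2.

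The libraries that stood apart held the members at higher levels than the rest. Fga was between 4.27 and 6.49 in 17 brown fat arrays and between 7.67 and 12.18 in the 3 others. Plg was between 4.81 and 6.43 against 7.84 to 11.32, and Serpinc1 between 5.63 and 6.43 against 7.37 to 10.83. For F2, Serpinc1, Plg, Fga and Fgb all 3 libraries lay above the 17 others, and for F5, F7, F9, F10 and Serpind1 only mouse 82 did. In white fat Fga was between 5.10 and 8.23 in 11 arrays and between 9.06 and 11.97 in the 3 that stood apart.

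**Figure D5:**
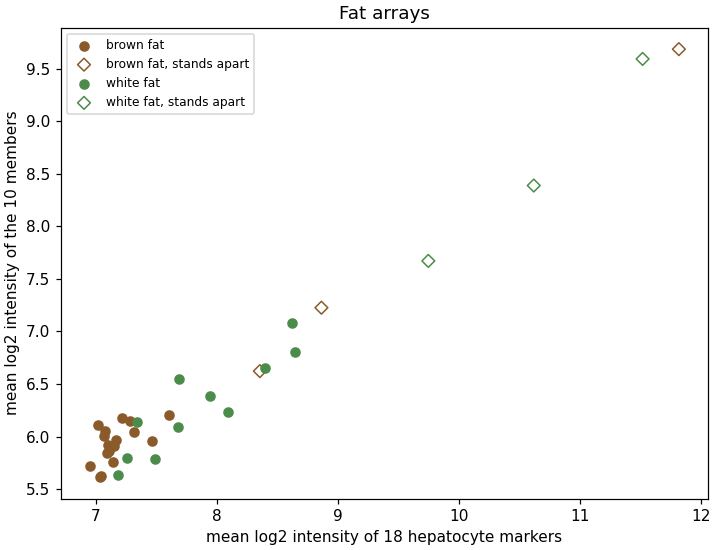
Each point is a fat array, with the mean log2 intensity of 18 hepatocyte markers on the horizontal axis and that of the 10 members on the vertical axis. The mean of the members runs from 5.61 to 7.07 in the filled points and from 6.62 to 9.68 in the open diamonds, and it is higher where the hepatocyte markers are higher.

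Over the 14 white fat arrays the mean of the members had an r of 0.983 with the hepatocyte marker mean (rho 0.956), and 0.902 over the 11 arrays that did not stand apart. Over the 20 brown fat arrays it was 0.985 (rho 0.716), and 0.579 over 17. The tissue of origin of this signal was not tested. In the 4 comparisons of treated with vehicle fat 0 of 10 members were called, also without these libraries. The background in brown fat was 0.0605% of genes on day 15 and 0.055% on day 29, and in white fat 3.95% and 1.34%. At an unadjusted p below 0.05 stood 3.75% and 6.01% of genes in brown fat on days 15 and 29, and 19.7% and 14.8% in white fat. The only members among them were F10 and Serpind1 in brown fat on day 29, at -0.75 ± 0.33 and -0.72 ± 0.22 (adjusted p 0.767 and 0.387), where the vehicle group holds mouse 82. Without the libraries that stood apart they were -0.31 ± 0.24 and -0.53 ± 0.17 (adjusted p 0.586 and 0.148).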

How the data were processed

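RNA of liver, brown fat and white fat was measured on 74 Affymetrix mouse arrays, 1 per mouse and tissue. The deposited intensity values are linear and, per the submitters' processing notes, came from robust multi-array averaging (RMA). No source used here gives its version, the chip definition or which arrays were normalized together, and no detection calls were used. The log2 of the deposited intensity was taken. Of 45101 probe sets, the platform annotation gave a single gene symbol to 34945 and several to 932, which were not used, and 64 were controls. The probe set with the highest mean over all arrays represented each of 18193 genes. Replicates are different animals by their labelled mouse numbers, and their number limits the precision.

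Tests used limma 3.58.1 (lmFit and eBayes, R 4.3.3), with 1 mean per group within each tissue and study, all 8 liver groups for differences between compounds, and the 8 groups of liver and brown fat of the troglitazone study for the tissues. Benjamini-Hochberg adjusted p-values over all genes were called below 0.05. Tables and figures used Python 3.11.15. The members and the gene lists were chosen with earlier results of these data known. Named genes were all members, a fixed set of related genes, any list gene called in liver (there were none), and the 3 genes closest to each member. Promoters were read from RefSeq up to the start only. The mouse as a replicate block was an alternative for liver against brown fat, since by their numbers 7 of the 10 vehicle and 8 of the 10 treated mice gave both tissues. The consensus correlation was -0.0448. The fits were also tested on simulated arrays with known changes. Other settings covered scaling, dim genes, probe sets, eBayes, array weights, the groups and controls in the fit, and leaving out arrays. In the setting with all probe sets, each member was given by its probe set with the smallest p. The white fat setting without libraries that stand apart was planned, but its rule and the brown fat settings were set after the data were seen, as over 1 log2 unit above the tissue's median in hepatocyte markers or over 2 below it in brown adipocyte markers. No batch is given in the labels.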

Additional observations from a re-analysis of the deposited data

Results flagged for a closer look

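For each member and each group of 4 or 5 mice, the highest and the lowest sample were checked for a gap to the others that was large against the group's whole range (Dixon's criterion). Of 140 groups checked, 14 held such a sample. Chance marks about 1 in 20 groups, and members of one array are not independent.

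In liver 2 of 80 groups did. F2 was 14.12 in troglitazone mouse 53 on day 15, against a median of 14.25 in the other 4, and F7 was 12.44 in troglitazone mouse 54 of that day, against 12.25. In mouse 53, 9 of the 10 members lay below their group mean.

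The other samples belonged to fat libraries that carry hepatocyte markers. Brown fat vehicle mouse 82 on day 29 stood apart for Fga (12.18, against a median of 4.88 in the others), Fgb (11.46 against 5.35), Plg (11.32 against 5.84), Serpinc1 (10.83 against 6.18), F2 (10.47 against 5.69), F9 (7.81 against 5.15) and F7 (7.69 against 6.35). Brown fat vehicle mouse 42 on day 15 stood apart for Fga (8.42 against 4.83), Serpinc1 (7.90 against 6.05) and Fgb (7.70 against 5.41). In white fat on day 29, F5 was 7.86 in fenretinide mouse 95 against 6.03, and F7 was 6.92 in vehicle mouse 86 against 6.21.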

How the results depend on the processing

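The members' calls held under nearly all settings. In the 4 liver comparisons, 0 of 400 member values were called with 1 array left out (smallest adjusted p 0.249), and 1 of 440 under the other settings. Array weights called 1 member, F5, with troglitazone on day 29 and in the difference between compounds on day 29. Leaving out 1 array moved the F5 change to between -0.43 (without Elmiron mouse 52) and -0.28 (without Elmiron mouse 55) for Elmiron on day 15, and to between -0.41 (without vehicle mouse 88) and -0.24 (without treated mouse 96) for troglitazone on day 29. In the fit of liver against brown fat with the mouse as a replicate block, a partial pairing, 10 of 10 members were called, as without the block, and 13811 genes. No member's called value changed its sign.

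Counts over all genes moved more, from small numbers. Elmiron on day 15 went from 0 to 5 genes with the other study's vehicle livers and 3 with those of both studies. Elmiron on day 29 went from 1 to 2 (quantile normalization, 2 groups alone, vehicle livers of both studies), 4 (all 8 groups), 7 (array weights) and 42 (other vehicles), and 0 to 1 with 1 array left out. Troglitazone on day 15 went from 4 to 7 (quantile normalization, the dimmer 50% dropped, trended eBayes), 8 (probe sets averaged), 9 (all probe sets), 10 (2 groups alone, vehicle livers of both studies), 17 (other vehicles) and 19 (array weights). Troglitazone on day 29 went from 21 to 4 (2 groups alone), 11 (vehicle livers of both studies), 13 (all 8 groups), 74 (other vehicles) and 436 (array weights), and to 7 without vehicle mouse 85 and 50 without vehicle mouse 87. The difference between compounds went from 1 to 2 (quantile normalization, array weights) and 0 (probe sets averaged) on day 15, and from 17 to 912 (array weights) on day 29. Without the fat libraries that stand apart, counts went from 11 to 129 and from 10 to 152 in brown fat on days 15 and 29, and from 244 to 48 in white fat on day 29. The cause of these shifts was not tested. With 5 mice a group, the fits to simulated data seldom called a change of 0.25 log2 units in genes drawn from all genes. Members with a smaller spread were not tried separately.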
